A study of Homo sapiens with 21 samples.

Results

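The genes described here are the clustered HOX genes and the TALE homeobox genes MEIS, PBX, PKNOX and TGIF. They were chosen by name alone: a HOX symbol of cluster A, B, C or D with its number, or 1 of the 4 TALE names with a number. The rule takes 50 genes of the annotation, 39 HOX and 11 TALE. Of these, 18 were listed in at least 1 of the 6 deposited comparison tables (9 HOX and 9 TALE), with 52 transcripts and 103 table entries, among 11851 genes and 21537 transcripts listed in all. Each of the 18 was called in at least 1 comparison. The other 32 genes, 30 HOX and the TALE genes PBX3 and PBX4, were in no table. Since the tables stop at a q-value of 0.05, a transcript that was not tested cannot be told apart from one that was tested and did not pass.

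The study measured poly-A RNA in PGP1, an established human induced pluripotent stem cell (iPSC) line, as it was differentiated to cardiomyocytes (CM) through mesoderm (M), cardiac mesoderm (CMes) and cardiac progenitors (CP). There were 15 wild-type libraries, 3 at each of 5 stages, and 6 libraries of CMs from UBE2B-/- cells, 3 from each of 2 lines labelled UBE2B-/-1 and UBE2B-/-2 and called line 1 and line 2 here. UBE2B is the E2 enzyme of the complex that monoubiquitinates histone H2B. Each line was grown from a single edited colony in a separate CRISPR-Cas9 experiment, so the edit was carried from the iPSC stage on. A library came from 2 wells of a plate, the 3 replicates of a group were started at different times, and CMs were selected in lactate once cells beat. The UBE2B-/- libraries came from beating CMs, matched in time to the wild type, and only some of the mutant wells beat. All groups share the same parental line and the same chemical protocol, in which Wnt signaling is first activated and then blocked. More UBE2B-/- than wild-type cells were plated at the start.

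HOX proteins are homeodomain transcription factors encoded in 4 clusters, in which the genes at the 3′ end (paralog group 1) are usually switched on first and farthest toward the head, and those at the 5′ end (group 13) last and toward the tail. In the embryo the 3′ genes of clusters A and B mark the posterior second heart field, where retinoic acid induces them. TALE proteins are homeodomain factors with a loop extension of 3 amino acids. PBX proteins bind DNA together with HOX proteins and with MEIS or PKNOX, which also hold PBX in the nucleus, and TGIF proteins are repressors that bind the same core motif as MEIS and act on retinoic acid and TGF-beta responses.

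Promoter sequences are printed for 4 TALE genes that the comparisons below turn on, MEIS1 and MEIS3 as HOX partners and TGIF1 and TGIF2 as repressors. They are the 250 bases before 1 start of the gene in RefSeq (GRCh38.p14), read 5′ to 3′ on the strand of the gene. In each of them this RefSeq start was the start of a transcript listed in the tables. MEIS3, TGIF1 and TGIF2 have other RefSeq starts, whose windows are not printed. The windows were chr2:66434875-66435124 on the plus strand for MEIS1, chr19:47419528-47419777 on the minus strand for MEIS3, chr18:3451343-3451592 on the plus strand for TGIF1 and chr20:36573347-36573596 on the plus strand for TGIF2. Capitals mark matches on either strand to any of 5 motifs. The PBX-HOX composite motif searched for was TGATNNAT, and the core that MEIS, PKNOX and TGIF proteins share was TGACAG. For the GC box, which is bound by SP factors, the letters were GGGCGG. For the box at which TATA-binding protein sits they were TATAAA. The half-site of nuclear receptors such as the retinoic acid receptors was searched for as AGGTCA.
MEIS1: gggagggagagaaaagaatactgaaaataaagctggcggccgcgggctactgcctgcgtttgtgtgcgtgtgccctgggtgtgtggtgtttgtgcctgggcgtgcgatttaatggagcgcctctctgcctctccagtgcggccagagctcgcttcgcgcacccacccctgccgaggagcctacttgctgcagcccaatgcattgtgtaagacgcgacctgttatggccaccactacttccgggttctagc
MEIS3: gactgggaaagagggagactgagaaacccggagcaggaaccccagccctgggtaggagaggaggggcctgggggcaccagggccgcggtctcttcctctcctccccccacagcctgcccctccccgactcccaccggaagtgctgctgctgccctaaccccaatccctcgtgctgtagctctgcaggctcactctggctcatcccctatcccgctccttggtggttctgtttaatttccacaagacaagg
TGIF1: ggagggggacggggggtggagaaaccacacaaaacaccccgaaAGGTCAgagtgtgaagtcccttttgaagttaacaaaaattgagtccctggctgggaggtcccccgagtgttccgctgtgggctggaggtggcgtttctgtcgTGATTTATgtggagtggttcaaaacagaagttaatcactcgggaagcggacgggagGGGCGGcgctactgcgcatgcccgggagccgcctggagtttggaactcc
TGIF2: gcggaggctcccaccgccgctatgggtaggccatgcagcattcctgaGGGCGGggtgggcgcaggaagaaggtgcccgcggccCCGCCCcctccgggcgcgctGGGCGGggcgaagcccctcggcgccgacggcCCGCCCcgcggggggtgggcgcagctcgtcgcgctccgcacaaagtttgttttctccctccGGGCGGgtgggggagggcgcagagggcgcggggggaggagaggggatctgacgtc

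The MEIS1 and MEIS3 windows held none of the 5 motifs. The TGIF1 window held 1 PBX-HOX composite motif, 1 GC box and 1 nuclear receptor half-site, and the TGIF2 window held 5 GC boxes. Windows at other starts of these genes differed. The TGIF1 window at chr18:3449922-3450171 held 7 GC boxes and 1 MEIS core, but neither the composite motif nor the half-site. The MEIS3 window at chr19:47422234-47422483 held 2 GC boxes, and the TGIF2 window at chr20:36573214-36573463 held 3. Over all 35116 promoters of the same length, 6.47% held the PBX-HOX composite motif, 13.03% the MEIS core, 42.6% a GC box, 10.7% a TATA box and 12.1% the half-site. The GC content was 59.6% with 16 CpGs for MEIS1, 63.2% with 7 for MEIS3, 57.6% with 14 for TGIF1 and 76.4% with 31 for TGIF2.

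Values are given as the mean of a group of 3 libraries in estimated counts, which were recovered from the authors' fit on the natural-log scale and are not corrected for transcript length. The error is the standard error (SE) of the log2 change. The deposited tables hold no value per library, so neither the spread within a group nor an overlap between groups could be shown, and the depth of the libraries is unknown. A transcript was called when its q-value from the authors' Sleuth Wald test, adjusted by Benjamini-Hochberg, was at most 0.05 and its natural-log change b was at least log2(1.5), a fold of 1.79. Where a group lies under 3 counts, the fitted log2 change depends on the 0.5 added before the log, and where all 3 libraries of a group stood at 0 the fold against a floor of 3 counts is given as a lower bound. The Wald test uses a normal distribution. With a t distribution on the residual degrees of freedom, 1 member transcript higher and 1 lower were called from CP to CM and none in the other comparisons. In bulk samples, fewer cells of a type and less RNA per cell cannot be told apart.

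Markers of the labelled stages were present, beside those of other cells. Of 6 cardiomyocyte genes, 6 were called higher from CP to CM, with a summed level of 14270 in CP and 505234 in CM, while 5 of 6 pluripotency genes were called lower from CMes to CP and 5 of 6 from CP to CM, none from iPSC to M, and 3 of 5 primitive streak genes were called higher from iPSC to M. In CP the listed stromal and endoderm transcripts summed to 90636 and 34229, against 16030 for the cardiomyocyte transcripts in the same comparison. UBE2B itself was listed for line 1, where the transcript ENST00000499038, which has no defined coding sequence, fell by 1.91 on the log2 scale (SE 0.53, q = 0.0113). It was not listed for line 2, and the change there, solved from the variance columns, was -1.57 or -0.35. An edit of the coding sequence need not lower the RNA of a gene, so this does not test the genotype.

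The HOXB cluster on chromosome 17 held 6 of the 9 listed HOX genes. HOXB2, a group 2 gene at chr17:48540894-48545109 that patterns the hindbrain, was called in all 4 stage comparisons and had the highest HOX level in CP. Its transcript ENST00000330070 stood at 0.565 in iPSCs and 22.7 in M (log2 change 4.45, SE 1.29, q = 0.0160), at 24.3 in M and 85.7 in CMes (log2 change 1.80, SE 0.55, q = 0.0142), at 86.2 in CMes and 956 in CP (log2 change 3.46, SE 0.39, q = 1.81e-16), and at 847 in CP and 158 in CM (log2 change -2.42, SE 0.22, q = 7.24e-27). The level rose through 3 transitions and fell in the last. On the scale of the last comparison the CMes level was 76.3, so CM stood above CMes, a difference that was not tested.

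In iPSC to M, 2 of 50 HOX and TALE genes were called higher (4%, HOXB2 among them) and 2 lower (4%, TGIF2 among them), where 3.1% of 20020 protein-coding genes had a transcript called higher and 4.17% one called lower. Of all 68446 transcripts tested, 2.87% were called in that comparison. The counts of genes are therefore near the background in both directions. HOXB3, the group 3 gene, joined in CMes. Its main transcript ENST00000470495 stood at 8.13 in M and 66.8 in CMes (log2 change 2.96, SE 0.79, q = 0.00335).

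From CMes to CP, 8 of 39 HOX genes were called higher and none lower, and 6 of these were among the 10 HOXB genes. Over HOX and TALE genes together, 12 of 50 were called higher (24%) and 1 lower (2%), where 8.28% of protein-coding genes were called higher and 6.87% lower, and 6.43% of 71328 transcripts were called. HOXB4, a group 4 gene known from blood stem cells, stood at 13.9 in CMes and 543 in CP (log2 change 5.24, SE 0.46, q = 5.96e-28). HOXB5, of group 5, stood at 8.23 and 261 (log2 change 4.91, SE 0.44, q = 3.94e-26). HOXB6, of group 6, rose from 2.33 to 162 in the transcript ENST00000225648 (log2 change 5.84, SE 1.28, q = 1.10e-04).

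These genes were under 14 counts in CMes and at 162 or more in CP. HOXB8, of group 8, stood at 0 in CMes and 16.5 in CP, at least 5.50-fold higher (q = 0.0118), which makes it the lowest HOX gene called in CP and the farthest 5′ gene of the cluster that was listed. HOXB3 had 5 transcripts called higher, with log2 changes of 2.68 to 7.19, the main one at 67.2 in CMes and 433 in CP (SE 0.58, q = 9.22e-05). HOXC13, a group 13 gene at chr12:53938831-53946544 known for its role in hair and nails, was listed outside the order of the HOXB genes, at 1.92 in CMes and 63.1 in CP (log2 change 4.72, SE 1.01, q = 7.90e-05). No other gene of paralog groups 9 to 13, of 16, was listed in any comparison. The 30 HOX genes in no table were 10 HOXA genes, HOXB1, HOXB7, HOXB9 and HOXB13, HOXC5, HOXC6 and HOXC8 to HOXC12, and all 9 HOXD genes.

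**Figure D1:**
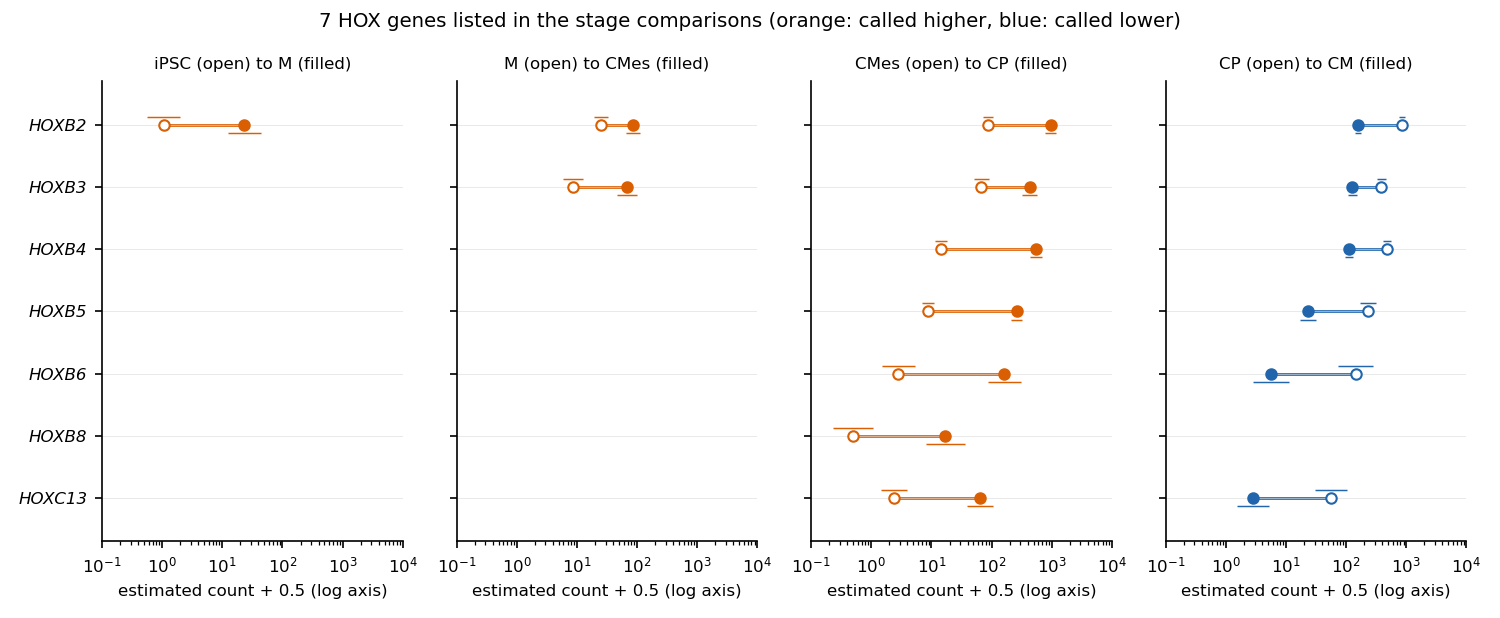
Levels of 7 HOX genes listed in the stage comparisons, as estimated count plus 0.5 on a log axis, with the earlier stage as an open and the later stage as a filled point and the standard error of a group mean as a thin line beside each point. HOXB2 is higher in M than in iPSCs, all 7 genes are higher in CP than in CMes, and the 6 of them listed from CP to CM are lower in CM; a gene with no point was not listed.

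Per kilobase of spliced transcript, HOXB2 had the highest level of the HOX genes in CP, 568 estimated counts per kb, followed by HOXB4 with 271 per kb. HOXB2 stood above HOXB4 by 2.50 times the error of the difference, and HOXB4 above HOXB5 by 2.11 times. HOXB5 with 141 per kb, HOXB3 with 103, HOXB6 with 96.6 and HOXC13 with 26.8 did not differ from their neighbours below in this order beyond their error, since each gap was at most 1.61 times its error. HOXB8 had the lowest level, 7.58 per kb.

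In the order of the cluster the change from CMes to CP was 3.46 for HOXB2, 12.4 kb from the 3′ end of HOXB1, 2.68 for HOXB3 at 20.3 kb, 5.24 for HOXB4 at 47.0 kb, 4.91 for HOXB5 at 62.7 kb, 5.84 for HOXB6 at 67.2 kb and 5.09 (SE 1.54) for HOXB8 at 82.9 kb, all on the log2 scale. HOXB2 and HOXB3 were already above their M level in CMes, and their changes were the smallest of the 6. HOXB1 at the 3′ end, HOXB7, HOXB9 and HOXB13 were not listed. The other listed HOXB3 transcripts start upstream of the main one, at -20.6 to -36.3 kb from its start, and 3 of the 4 reach into or across HOXB4 on the same strand, so that reads may be divided between the genes and their levels are uncertain.

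**Figure D2:**
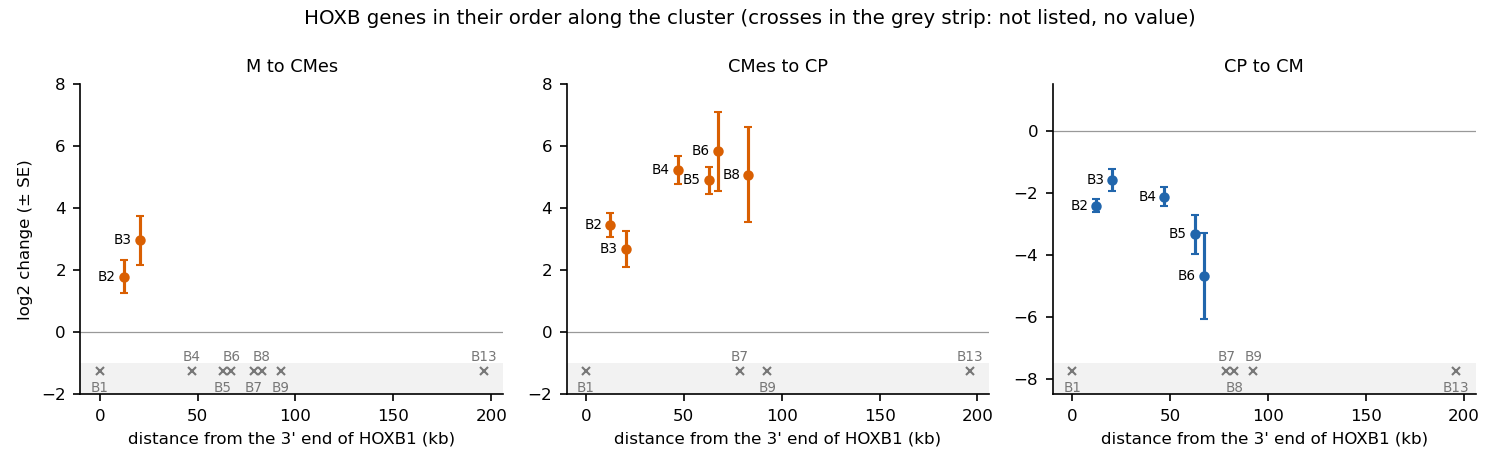
Log2 change (± SE) of the HOXB genes against their distance from the 3′ end of HOXB1, for the transcript with the highest mean of each gene; crosses in the grey strip mark genes that were not listed and have no value. In CP against CMes the changes run from 2.68 for HOXB3 to 5.84 for HOXB6, and in CM against CP the 5 listed genes lie between -1.60 and -4.67.

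From CP to CM, 7 of 39 HOX genes were called lower and none higher, 5 of them HOXB genes. Over HOX and TALE genes together, 12 of 50 were called lower (24%) and 2 higher (4%), where 14.9% of protein-coding genes were called lower and 16.8% higher, and 15.2% of 69937 transcripts were called. HOXB4 stood at 481 in CP and 109.8 in CM (log2 change -2.13, SE 0.31, q = 4.72e-10). HOXB5 stood at 231 and 22.5 (log2 change -3.34, SE 0.63, q = 1.94e-06). HOXB6 fell from 143 to 5.14 (log2 change -4.67, SE 1.39, q = 0.00635), and HOXC13 from 55.9 to 2.33 (log2 change -4.32, SE 1.27, q = 0.00575).

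HOXB2, HOXB3 and HOXB4 kept levels above 100 in CM, whereas HOXB6 and HOXC13 were near or under the floor of 3 counts. HOXB3 fell from 384 to 126 in its main transcript (log2 change -1.60, SE 0.35, q = 8.93e-05). HOXB8 was not listed. The 3 CP libraries enter both this comparison and the one before it, so a high value in CP acts on both. Beside these changes, markers of other cells moved too. Of 6 stromal genes, 4 were called higher in CP than in CMes (summed level 5493 to 90636), as were 3 of 3 epicardial genes (18.2 to 240) and 3 of 5 endoderm genes, AFP, APOA1 and TTR, with 1 lower (2668 to 34229). From CP to CM the listed stromal genes went from 46912 to 11753 (3 called lower, 2 higher), the epicardial genes from 174 to 8.76 (2 of 3 lower) and the endoderm genes from 23573 to 811 (4 of 5 lower). The pluripotency genes went from 44110 to 463 (5 of 6 lower), LIN28A with 32426 of that sum in CP, and the endothelial genes from 8097 to 865 (3 of 5 lower). Their part in the HOX values was not tested.

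MEIS1, MEIS2, MEIS3 and PKNOX2, whose products pair with PBX and HOX proteins, were called higher from M to CMes. Over all members, 10 of 50 genes were called higher (20%) and 1 lower (2%), where 8.9% of protein-coding genes were called higher and 6.52% lower, and 6.46% of 70285 transcripts were called. Of the 11 TALE genes, 8 were called higher and none lower. A gene with many annotated transcripts has more chances of a call: MEIS2 has 38 and MEIS3 has 14.

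PKNOX2, at chr11:125164687-125433389, had the largest of these changes. Its transcript ENST00000298282 stood at 0.366 in M and 576 in CMes (log2 change 9.38, SE 0.87, q = 1.74e-24). MEIS1, which is needed for heart and blood development and restrains the cardiomyocyte cell cycle after birth, had 5 transcripts called higher, with log2 changes of 4.58 to 7.45. ENST00000272369, whose promoter is printed above, stood at 0.809 in M and 170.0 in CMes (log2 change 7.03, SE 1.39, q = 1.65e-05), and ENST00000488550 at 0 and 87.0, at least 29.0-fold higher (q = 3.50e-09).

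MEIS1, MEIS2 and PKNOX2 were thus near 0 in M and clearly above the floor in CMes. MEIS2, mutated in a syndrome with cleft palate and heart defects, had 3 transcripts called higher, ENST00000340545 at 0.810 and 108 (log2 change 6.37, SE 1.39, q = 1.51e-04) and ENST00000424352 at 0.403 and 56.7 (log2 change 5.98, SE 1.20, q = 2.45e-05) among them. MEIS3 was already present in M, at 121 in ENST00000558555, and rose to 577 (log2 change 2.24, SE 0.63, q = 0.00614).

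**Figure D3:**
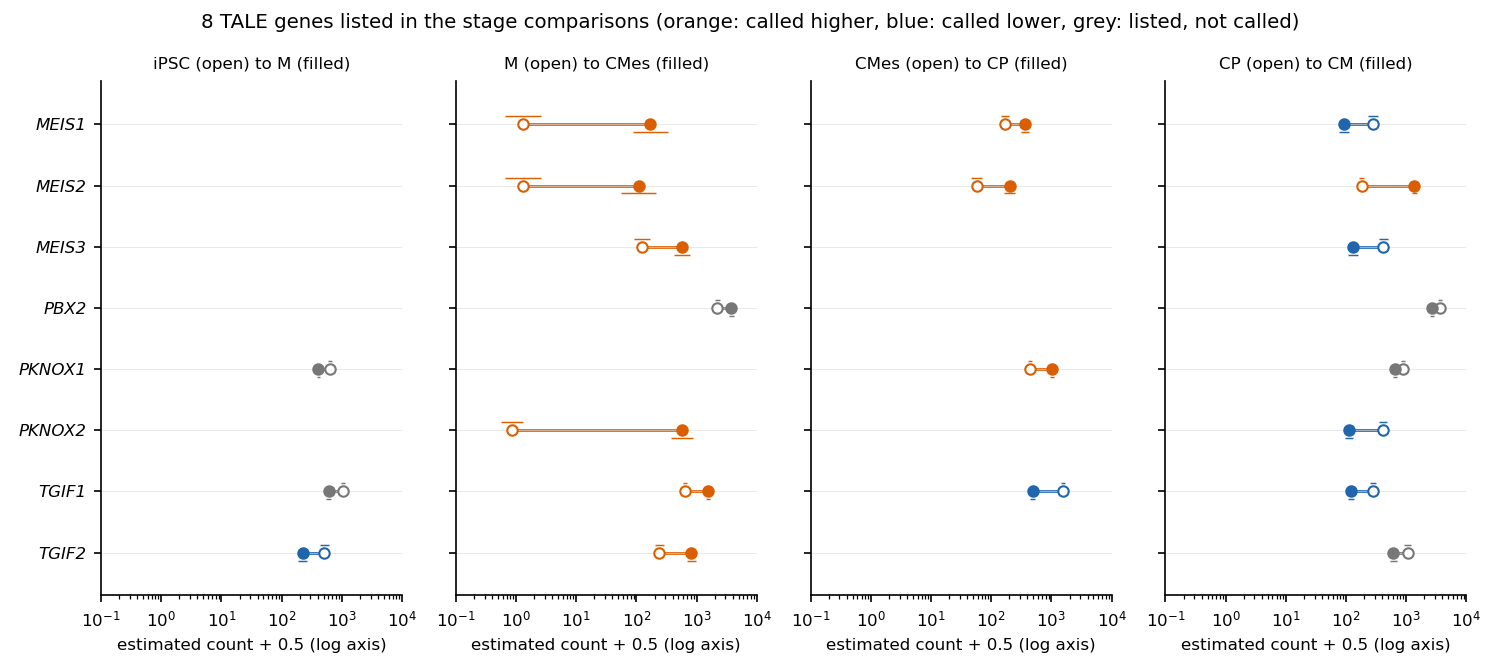
Levels of 8 listed TALE genes in the stage comparisons, as estimated count plus 0.5 on a log axis, drawn as in the HOX plot for the transcript with the highest mean in that comparison. MEIS1, MEIS2 and PKNOX2 go from under 1 count in M to over 100 in CMes, and from CP to CM MEIS2 is higher while MEIS1, MEIS3 and PKNOX2 are lower; in grey the transcript shown was listed but not called.

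After CMes the MEIS genes differed in direction. From CMes to CP MEIS1 rose from 171 to 362 (ENST00000272369, log2 change 1.08, SE 0.31, q = 0.00836), and MEIS2 from 57.1 to 204 (ENST00000424352, log2 change 1.83, SE 0.42, q = 3.31e-04). The other called MEIS2 transcripts changed by 6.24 and 6.32, and the sum of the 3 by 2.68, on the log2 scale. From CP to CM MEIS2 rose again, to 1366 from 180.3 in the same transcript (log2 change 2.92, SE 0.19, q = 2.32e-50), and 7 of 7 listed MEIS2 transcripts were called higher, with log2 changes of 2.01 to 4.97. MEIS1 fell from 282 to 93.1 in another transcript (ENST00000488550, log2 change -1.59, SE 0.40, q = 7.57e-04). That was the 1 MEIS1 transcript listed from CP to CM. ENST00000272369, at 362 in CP, was not listed there, so the fall of the gene rests on ENST00000488550.

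MEIS3 fell in 3 transcripts from CP to CM, with log2 changes of -1.08 to -1.67, ENST00000558555 from 416 to 130.3 (SE 0.36, q = 4.46e-05). PKNOX2 fell from 415 to 111.7 (log2 change -1.89, SE 0.30, q = 7.02e-09). Among the 14 members listed from CP to CM whose transcript had a length in the annotation, MEIS2 was the highest per length in CM. It had 468 estimated counts per kb against 64.5 for MEIS3, 30.7 for PKNOX2 and 18.2 for MEIS1. Each of these values covers 1 transcript, ENST00000488550 for MEIS1. PBX2, listed at 2633 counts in CM without an annotated length, could not be ranked and may stand as high per length as MEIS2. Technical variance, which the authors' fit estimates from resampled read assignments, was 36.3% of the total for ENST00000424352 and 95.4% for ENST00000397624, so that the level of the second is less certain.

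PKNOX1, the broadly expressed paralog of PKNOX2, stayed between 408 and 1005 counts in the comparisons that listed it. It was called once, from 447 in CMes to 1005 in CP (log2 change 1.17, SE 0.16, q = 5.47e-12). From iPSC to M it was listed with a log2 change of -0.63 (SE 0.14), and from CP to CM with -0.45 (SE 0.15), both under the limit on b.

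PBX proteins are the partners that HOX and MEIS proteins share. PBX2 was listed under 2 identifiers with no match in the annotation, of which ENST00000433552 rose from 739.9 to 1737 from M to CMes (log2 change 1.23, SE 0.42, q = 0.0408) and ENST00000431537 was listed at 2217 and 3764 (log2 change 0.76, SE 0.19) without reaching the limit. From CP to CM ENST00000431537 was listed at 3664 and 2633 (log2 change -0.48, SE 0.16), again under the limit.

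TGIF1 and TGIF2, the repressors of the group, were both called higher in CMes than in M. TGIF2 fell from 510 to 225 from iPSC to M (log2 change -1.18, SE 0.35, q = 0.0227) and rose from 241 to 809 from M to CMes (log2 change 1.75, SE 0.35, q = 2.12e-05). TGIF1 was listed from iPSC to M at 1055 and 603 in ENST00000400167 (log2 change -0.81, SE 0.17), under the limit on b, and rose from 645 to 1548 in CMes (log2 change 1.26, SE 0.16, q = 2.00e-12), with 6 of 6 listed transcripts called higher.

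TGIF1 was the only member called lower in CP than in CMes. All 8 listed transcripts fell, with log2 changes of -1.16 to -4.32, ENST00000400167 from 1557 to 485 (log2 change -1.68, SE 0.17, q = 3.46e-21), and ENST00000551541, which starts at the promoter printed above, from 142 to 45.4 (log2 change -1.64, SE 0.50, q = 0.0139). From CP to CM TGIF1 fell again, from 278 to 121 in ENST00000577543 (log2 change -1.19, SE 0.25, q = 2.59e-05). TGIF2 was not listed from CMes to CP, and from CP to CM it was listed at 1053 and 607 (log2 change -0.79, SE 0.26), under the limit on b.

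**Figure D4:**
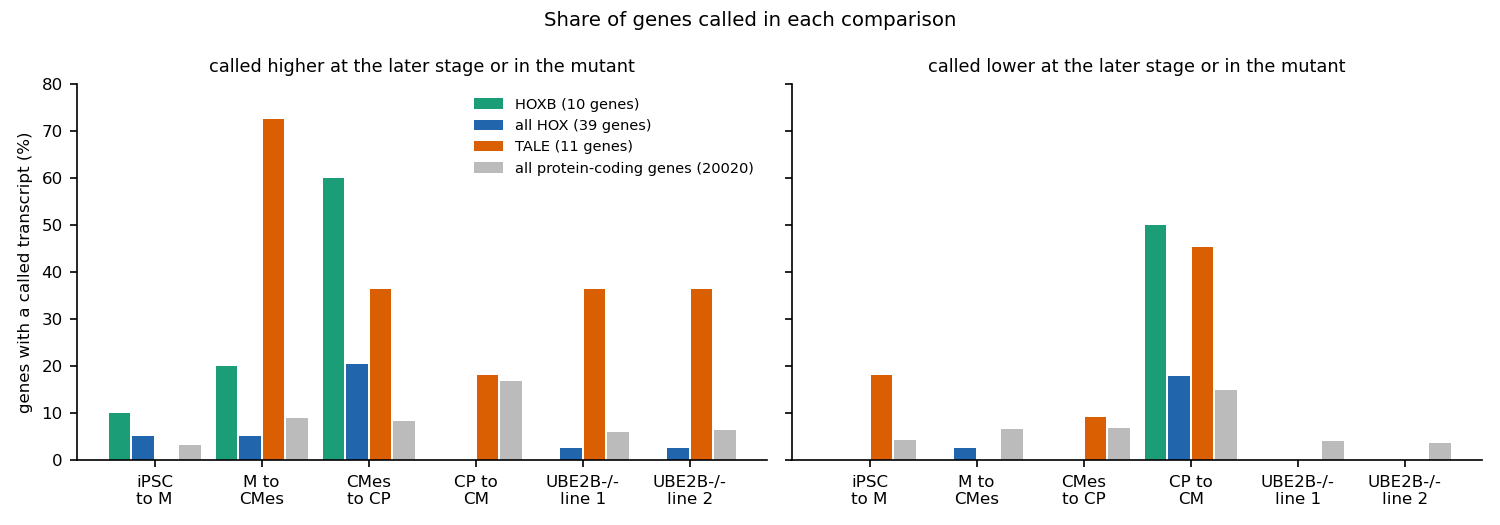
Share of genes with a transcript called higher (left) or lower (right) in each comparison, for the 10 HOXB genes, all 39 HOX genes, the 11 TALE genes and 20020 protein-coding genes. The bars of the HOXB genes reach 60% called higher in CP and 50% called lower in CM, and those of the TALE genes 72.7% higher from M to CMes, against 8.28%, 14.9% and 8.9% of all genes.

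Among genes that act on HOX genes, the list of retinoic acid and caudal inputs held 21 genes. CDX1 and CDX2, caudal factors that activate central HOX genes, were called higher from iPSC to M (CDX2 2.15 to 643, log2 change 7.92, SE 0.67) and lower from M to CMes (688 to 6.92), and CDX2 was called higher from CMes to CP (6.96 to 76.6, log2 change 3.37, SE 0.70). ALDH1A1, which makes retinoic acid, rose from 19.8 in CMes to 1031 in CP (log2 change 5.67, SE 0.27, q = 1.4e-92), and CYP26A1, which degrades it, fell from 2100 to 182 (log2 change -3.53, SE 0.41, q = 1e-15). In the same comparison ALDH1A3, which also makes retinoic acid, fell from 315 to 139 (log2 change -1.17, SE 0.22), as did the receptor RARG (784 to 267) and the binding proteins CRABP1 (1176 to 169) and CRABP2 (5277 to 2767), while DHRS3, which turns retinal back to retinol, rose from 145 to 411 and the receptor RARB from 123 to 285. In all, 5 genes of this list were called higher and 1 lower in M. The counts were 6 and 3 in CMes, 4 and 5 in CP and 8 and 5 in CM, each against the stage before.

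Chromatin regulators of HOX clusters moved in both directions. Of 19 Polycomb genes, which keep HOX clusters silent, 1 was called higher and 5 lower in CP against CMes, EZH2 from 863 to 478 (log2 change -0.85, SE 0.22) among them. In CM against CP 5 were higher and 3 lower, where CBX2 fell from 1331 to 276 (log2 change -2.27, SE 0.40, q = 2.64e-07). Of the list of 12 Trithorax genes and H3K27 demethylases, 2 were called higher and 1 lower in CP, and 1 higher and 5 lower in CM. KDM6B, an H3K27 demethylase, rose from 130.5 in iPSCs to 692 in M, from 740.2 to 1948 in CMes and from 1961 to 4699 in CP, and fell from 4161 to 2213 in CM. From iPSC to M, 3 Polycomb genes were called in each direction and KDM6B alone of the other list, and from M to CMes 6 Polycomb genes were called higher, none lower, again with KDM6B.

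Of 7 other TALE homeobox genes, the IRX genes and MKX, 2 were called higher from iPSC to M, 3 higher and 1 lower from M to CMes, 3 lower in CP and 3 higher in CM. None of the 19 noncoding RNAs of the HOX clusters was listed in any comparison, but 0.758% of the listed transcripts were of lncRNA type, so it is not known whether these RNAs were tested.

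In UBE2B-/- CMs, MEIS3, PKNOX2, HOXC4 and 1 transcript of MEIS2 were higher than in wild-type CMs in both lines. Per line, 5 of 50 genes were called higher (10%) and none lower, where 5.91% of protein-coding genes were called higher and 4.12% lower in line 1 and 6.49% higher and 3.54% lower in line 2, and 3.89% and 3.99% of 65457 transcripts were called. In both lines 4 of 50 genes were called higher and none lower, where 4.24% of protein-coding genes were called higher and 2.12% lower in both. At a q-value limit of 0.01, 2 of the 5 transcripts called in both lines passed in both. Both lines were compared with the same 3 wild-type libraries, so a low value there enters both.

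MEIS3 was higher in 2 transcripts. ENST00000331559 had means of 100.5 (wild type), 506 (line 1) and 692 (line 2), with log2 changes of 2.33 and 2.78 (SE 0.50, q = 3.47e-04 and 6.36e-06). ENST00000558555, whose promoter is printed above, stood at 150.4, 449 and 662 (log2 changes 1.58 and 2.13, SE 0.48, q = 0.0271 and 7.64e-04). Set on the scale of this fit, the wild-type CP level was 318 for the first and 480.3 for the second, so that the mutant CMs stood near the level of wild-type CP or above it in both transcripts, without a test across the fits.

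PKNOX2 had means of 129 (wild type), 508 (line 1) and 679.7 (line 2) (log2 changes 1.97 and 2.39, SE 0.56, q = 0.0153 and 0.00153). Its wild-type CP level on this scale was 479. MEIS3 and PKNOX2 were thus lower in wild-type CM than in CP and higher in mutant CM than in wild-type CM. These comparisons share the 3 wild-type CM libraries, and a low value in those libraries would give both.

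HOXC4, a group 4 gene, was the only HOX gene listed for the mutants. Its transcript ENST00000430889 (chr12:54053835-54056030, plus strand, clear of HOXC5 and HOXC6 in the annotation) was at 0.678 in the wild type, against 18.6 for line 1 and 26.98 for line 2 (log2 changes 4.02 and 4.54, SE 1.10, q = 0.0106 and 0.00244). It was listed in no stage comparison. The wild-type level was under the floor and the mutant levels were low. The MEIS2 transcript ENST00000559561 stood at 0.0975, 180.2 and 290.3 (log2 changes 8.24 and 8.93, SE 1.38, q = 1.18e-06 and 6.71e-08). No other MEIS2 transcript was listed for the mutants, the main transcript ENST00000424352 included, and 77.8% of the variance of ENST00000559561 was technical.

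**Figure D5:**
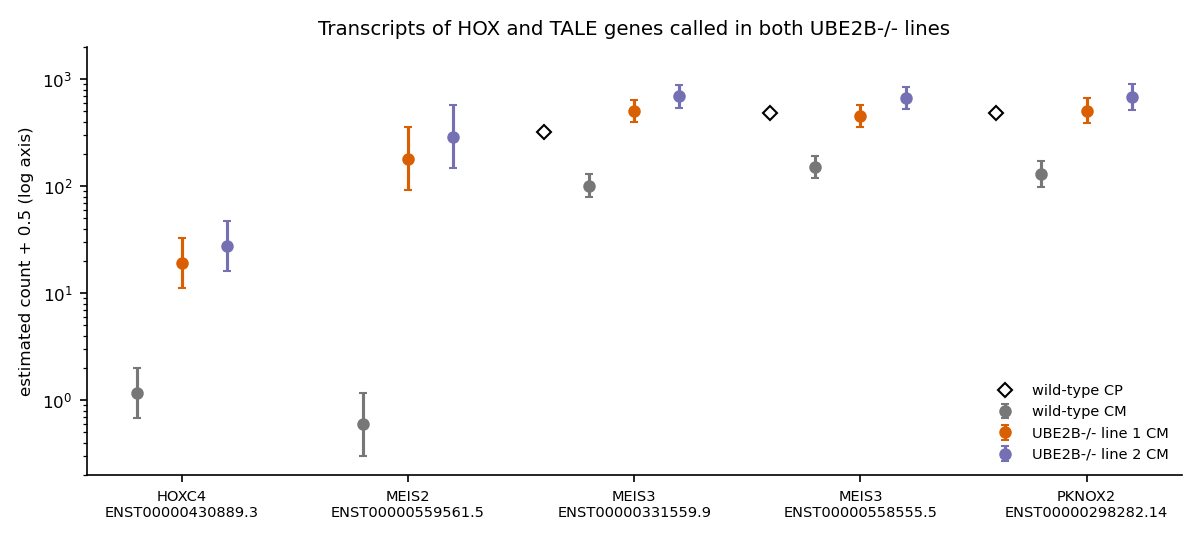
Estimated count plus 0.5 on a log axis for the 5 transcripts called in both UBE2B-/- lines, as group means with the standard error of a group mean, and, as open diamonds, the wild-type CP level moved onto this scale where it was known. In all 5 transcripts both lines lie above wild-type CM, and for MEIS3 and PKNOX2 they lie near or above wild-type CP.

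The lines did not differ detectably in these transcripts. Line 2 was higher than line 1 by 0.42 to 0.69 on the log2 scale, with unadjusted p of 0.242 to 0.634 from the Wald test on the authors' fit and an adjusted p of 1.00 over the 1992 transcripts listed for both lines. For MEIS3 ENST00000558555 the 95% interval of the difference ran from -0.38 to 1.495, and for MEIS2 from -2.01 to 3.39. Over all 1992 transcripts, 0 differed at an adjusted p of 0.05 and 29 at an unadjusted p of 0.05. Only transcripts with a q-value of at most 0.05 in both lines could enter, so those that passed only in line 1 or only in line 2 are missing. These counts therefore do not show how far the lines agree.

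Both TGIF genes were called in 1 line each. TGIF1 ENST00000577543 was higher in line 1 (log2 change 0.95, SE 0.30, q = 0.0401) and TGIF2 in line 2 (log2 change 1.11, SE 0.27, q = 0.00251). The change in the other line, solved from the variance columns, was 0.16 or 0.79 for TGIF1 in line 2 and 0.34 or 0.77 for TGIF2 in line 1. The larger value was taken for each, because its wild-type level matched the one from CP to CM on this scale (140.1 for TGIF1 and 700.0 for TGIF2). With these values the unadjusted p by the Wald test on the authors' fit was 0.00890 for TGIF1 and 0.00410 for TGIF2. A call in 1 line therefore does not show that the lines differ. TGIF1 stood at 140.0, 271 and 243 in wild type, line 1 and line 2, and TGIF2 at 700.0, 1195 and 1510. PBX2, PKNOX1, MEIS1 and every HOXB gene, HOXB2 to HOXB6 with their falls from CP to CM included, were not listed for either line.

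Other genes of these lists were called in both lines. Of the 21 retinoic acid and caudal inputs, 4 were called higher and none lower, among them CRABP1, RARG and CYP26B1, a retinoic acid binding protein, a receptor and a degrading enzyme. CYP26B1 was at 131 in the wild type, against 932 for line 1 and 918 for line 2 (log2 changes 2.83 and 2.81, SE 0.65). CBX2 of the 19 Polycomb genes (318, 976 and 748) and MEN1 of the 12 Trithorax genes and demethylases (394, 878 and 799 in its main transcript) were called higher, and none of the 7 other TALE homeobox genes was listed.

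Markers of other cells moved with the mutants. Of 6 stromal genes, COL3A1 and DCN were called higher in both lines, 2 in line 1 and 5 in line 2 in all, and their 7 transcripts listed for both lines summed to 9371 in the wild type, 95300 for line 1 and 248858 for line 2. DCN transcripts stood at 0.371 to 6.66 in wild type. TCF21, 1 of 3 epicardial genes, stood at 0.442, 141 and 214. Of 6 cardiomyocyte genes, 4 were called lower in both lines, with sums of 139326, 43900 and 38650, and GATA4 of the 6 cardiac mesoderm and progenitor genes was called higher (544, 1525 and 1917), while CNN1 of the 3 smooth muscle genes was called lower (726, 199 and 202). No endothelial, neural, endoderm, pluripotency or primitive streak gene was called in both lines. Over all transcripts called in both lines, the median GC content was 59.2% for those higher and 43.1% for those lower, where MEIS3 had 66.2% and 65.7%, PKNOX2 55.1%, MEIS2 51.2% and HOXC4 49.4%. The part of other cells or of GC content in the member values was not tested.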

How the data were processed

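RNA-seq of an iPSC to cardiomyocyte differentiation was analysed in 21 libraries of 7 groups. Trimming by the authors used the FASTX-Toolkit, quantification used Kallisto on hg38, and testing used Sleuth. The deposited p-value and q-value come from its Wald test. The deposited effect b, its error and the overall mean are natural log values of the estimated counts, to which the authors' tool had added 0.5. The deposited variance columns are scores that the authors' fit gave per transcript, as squares of such logs. The tables stop at a q-value of 0.05 and have 0 columns per library, so the total per library and its precision are unknown, and strand settings are not given in the sources used here. The effect columns are the authors' own fit. No other effect could be computed, so these were used. The study's methods state a fold limit of 1.5. The limit used here, b of log2(1.5), is stricter on the natural-log scale, and ln(1.5) is an alternative.

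In every listed transcript the standard error was checked to follow from the variance columns and the p-value from b and its error, and the recovery of group means was tested on simulated data. Group means are b and the overall mean solved for 3 libraries per group, less 0.5. The p-values rest on the technical variance plus the variance used in the authors' test. For part of the members that variance was above the transcript's own biological variance, as for HOXB8 from CMes to CP (1.65 against 0.084). The p-values therefore do not measure the spread between these libraries alone. Both UBE2B-/- tables come from 1 fit of 9 libraries. For the difference between lines the error of 1 line was used, since the wild type cancels. Consecutive tables were set on 1 scale by the median offset of the shared group (0.0673, 0.00632 and -0.121 between stage tables and 0.143 to the UBE2B-/- fit, natural log). Background shares of genes are over GENCODE 44 coding genes, because the number of member transcripts tested is not known. Of 52 listed member transcripts, 49 matched GENCODE 44 by identifier without version, 42 of them of protein-coding type. Of 50 member genes, 29 had an entry in the RefSeq promoter table (GRCh38.p14), and 5 of these started where a listed transcript starts. By rule, each member was described by its listed transcript of highest mean in a comparison, with others named where they moved the other way, and list genes were named only if called. Further transcripts and the choice among called list genes followed after their values were seen. Some genes are part of the counts but are not reported here. The members and gene lists were chosen with earlier results of these data known. Alternatives were another limit on b, no limit, a q-value of 0.01, a t distribution, the transcript's own variance, a mean of at least 10 counts, the transcript with the smallest q-value, and summed transcripts. In each member's transcript of highest mean, the own variance was never above the variance used in the test. The own-variance setting could therefore not drop those calls, and transcripts that were not listed could not enter, so its unchanged counts show nothing. Computations used Python 3.11.15 with NumPy 2.4.6, pandas 2.3.3, SciPy 1.17.1 and Matplotlib 3.10.9.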

Additional observations from a re-analysis of the deposited data

How the results depend on the processing

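No paired analysis was possible because the tables hold no value per library, and leaving out single libraries was not run for the same reason. Counts below are of member transcripts. With a t distribution on 4 or 6 residual degrees of freedom instead of the normal distribution, counts fell to 0 in both directions from iPSC to M, M to CMes and CMes to CP and higher in either UBE2B-/- line or both, and to 1 higher and 1 lower from CP to CM. Over all transcripts that setting called 0 from iPSC to M, M to CMes and in either UBE2B-/- line, 1 from CMes to CP, and 417 higher and 144 lower from CP to CM. All 5, 24, 29, 24, 6 and 6 called members kept an unadjusted t p under 0.05. Outside CP to CM this was fixed in advance. There, a Wald q-value of at most 0.05 already needed a change large enough, against its error, to pass that limit. It is therefore no further check on the calls. A limit of ln(1.5) on b, or none, gave 5 lower from iPSC to M in place of 2. A q-value limit of 0.01 gave 1 lower from iPSC to M, 4 lower from CMes to CP, 5 higher from CP to CM, 2 higher in UBE2B-/- line 1 and 2 higher in both lines. A mean of at least 10 counts gave 0 higher from iPSC to M and 1 lower from M to CMes. By gene, summing the listed transcripts moved 4 of 54 changes by over 1 SE, MEIS2 (2.68) and TGIF1 (-1.49) from CMes to CP among them, without a change of sign. Groups near 0 counts set the depth limit. Member entries below 3 counts in 1 group were 3 of 8 from iPSC to M, 12 of 26 from M to CMes and 12 of 30 from CMes to CP. They were 3 of 27 from CP to CM and 2 of 6 in each UBE2B-/- line.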
